A study of Mus musculus with 5 samples.

Results

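The genes of the proteasome were followed through a mouse stroke experiment. They were taken as every row of the gene table whose symbol begins with Psm, a letter from a to g and a number, with the immunoproteasome genes Psmb8, Psmb9 and Psmb10 left out. This gave 51 of 51912 rows, and 45 of the 51 had an adjusted p-value. The 45 were 31 subunits of the 20S core and the 19S cap, 7 assembly chaperones, 6 activators or inhibitors, and Psmc3ip. Psmc3ip matched by its symbol only, since it encodes a cofactor of meiotic recombination. Of the 6 without an adjusted p, Psma8 (a testis form of an alpha subunit) and Psmb11 (the thymus form of a catalytic subunit) had means of 5.22 and 2.35 normalized reads. The pseudogene rows Psmb6-ps2 and Psmb7-ps2 had means below 1 read, and Psmb5-ps and Psmb6-ps had none.

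Gene expression had been measured by RNA sequencing in C57BL/6 mice, with 2 libraries from sham-operated animals and 3 from animals with a stroke. The stroke was an occlusion of the middle cerebral artery for 30 minutes with a filament, and animals were kept when blood flow fell by 80% or more. No transgene, deletion or drug beyond anaesthesia is named for either group, and of age, tissue and hour of sampling the sources used here say nothing. The only hour they name is 24, when motor function was scored. The series is about the brain-enriched ubiquitin ligase Trim9, which the authors' deposited table puts at a log2 fold of 1.04 (SE 0.18, adjusted p = 1.1e-05, Wald test with DESeq2). Nothing states that each library came from a separate animal, so a p-value here measures only the spread between these libraries.

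The proteasome degrades proteins that carry ubiquitin chains. Its 20S core is a barrel of stacked alpha and beta rings, with the proteolytic sites on Psmb6 (caspase-like), Psmb7 (trypsin-like) and Psmb5 (chymotrypsin-like). The 19S cap has a base, whose ring of Psmc ATPases unfolds the substrate, and a lid, whose Psmd14 cuts the ubiquitin off. Cells that need more proteasomes are known to raise many of the subunit genes together, chiefly through the transcription factor NRF1 (Nfe2l1), which binds antioxidant response elements.

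The table gives each gene a mean over all libraries and no value per library. Whole reads per library were worked out from the mean, the fold change and its standard error, for 44 of the 45 tested members and 14312 of 17420 tested genes. Values below are these reads divided by the library's size factor, called normalized reads. The stroke libraries are numbered 1 to 3 from the largest size factor (1.16, 1.13 and 1.12), and the sham libraries go by deeper (0.945) and shallower (0.734). None of these names could be tied to the replicate numbers in the sample labels.

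The sham libraries stood apart from each other. Choroid plexus and ependyma markers (4 of 4 tested, Ttr among them) summed to 14153 normalized reads in the deeper sham, 278 in the shallower and 256 to 334 in the stroke libraries. Of these, Ttr and Folr1 were called lower in stroke (adjusted p below 0.05 in the authors' deposited table). Red blood cell markers (5 of 5 tested, none at 0) summed to 2801 in the deeper sham, 474 in the shallower and 67.2 to 230 in the stroke libraries. All 5 were called lower in stroke, and each had every stroke library below both sham libraries. Microglia markers (5 of 5) summed to 1790 in the shallower sham, 3462 in the deeper and 3195 to 3852 in the stroke libraries, with none called. Endothelial markers (4 of 4) summed to 3430 to 4775 in stroke, 2603 in the deeper sham and 3089 in the shallower, with all 4 fold changes above 0 and none called. Mural cell markers had 4 of 4 fold changes above 0 as well, with Acta2 called, and the 3 with recovered reads summed to 1086 to 1235 in stroke, 804 in the deeper sham and 940 in the shallower. All 6 neuron markers had fold changes above 0, with a median log2 of 0.22 and none called, and all 5 oligodendrocyte markers below 0, with a median of -0.28 and none called. Neuron markers were abundant (Snap25, a synaptic protein, had a mean of 65803 normalized reads) and lymphocyte markers nearly absent (the highest mean was 2.83, for Cd3e). The part of these cell types in the proteasome values was not tested. Fewer cells of a type and less RNA per cell cannot be told apart in such libraries.

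Upstream sequence is shown for a pair of catalytic subunits, Psmb5 and Psmb6, because both hold the core of an antioxidant response element, TGACNNNGC, in capitals here. Each stretch is the 250 bases before the RefSeq start of the gene (assembly GRCm38.p6), read 5′ to 3′ on the gene's strand. Psmb5 lies at chr14:54617996-54618245 on the minus strand and Psmb6 at chr11:70525107-70525356 on the plus strand.
Psmb5: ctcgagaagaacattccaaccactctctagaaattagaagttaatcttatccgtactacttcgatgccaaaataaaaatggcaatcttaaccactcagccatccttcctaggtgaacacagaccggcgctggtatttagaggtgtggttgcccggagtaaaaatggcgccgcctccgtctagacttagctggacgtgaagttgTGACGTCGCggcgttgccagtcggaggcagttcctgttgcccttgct
Psmb6: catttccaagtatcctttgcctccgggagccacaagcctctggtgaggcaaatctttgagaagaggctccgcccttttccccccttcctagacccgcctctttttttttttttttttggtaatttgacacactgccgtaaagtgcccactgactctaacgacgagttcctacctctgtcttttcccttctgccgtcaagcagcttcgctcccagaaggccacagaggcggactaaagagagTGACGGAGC

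RefSeq start sites were found for 38 of the 45 tested members. TGACNNNGC, searched on both strands, occurred in 13.2% of the 38 and in 11.5% of 27025 genes. The others with it were Psmc6, Psmd12 and Psmd9. CCAAT, the NF-Y box, occurred in 34.2% of members and 37.5% of all genes, and GGGCGG, the GC box, in 55.3% against 35.4%. The heat shock element pairs GAANNTTC and TTCNNGAA, which may overlap one another, each occurred in 5.26% of members, against 7.73% and 8.11% of all genes. The 27025 genes were not selected for expression or gene type, so they are not matched to the members. These are letter matches in one window and describe no binding.

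Subunit transcripts spanned a severalfold range of level per length. Mean normalized reads per kb of transcript over all libraries ran from 335 (Psma5) to 1926 (Psmc5) across the 31 core and cap subunits, a range of 5.75-fold. Their median was 1170 per kb. The base ATPases had the highest class median, 1385 per kb, beside 1303 in the beta ring and 887 in the alpha ring. The chaperones that assemble the particle lay lower, with medians of 156 per kb for the 20S chaperones (Psmg1 to Psmg4) and 201 per kb for the base chaperones (Psmd5, Psmd9 and Psmd10). All 7 chaperones lay below the lowest subunit. Among the activators, Psme3 (the nuclear PA28 gamma cap) reached 1056 per kb and the Psme2 copy Psme2b only 14.9. With the length of all annotated exons in place of 1 transcript, the 31 subunits ran from 234 (Psmb3) to 1818 (Psmc5) per kb.

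**Figure D1:**
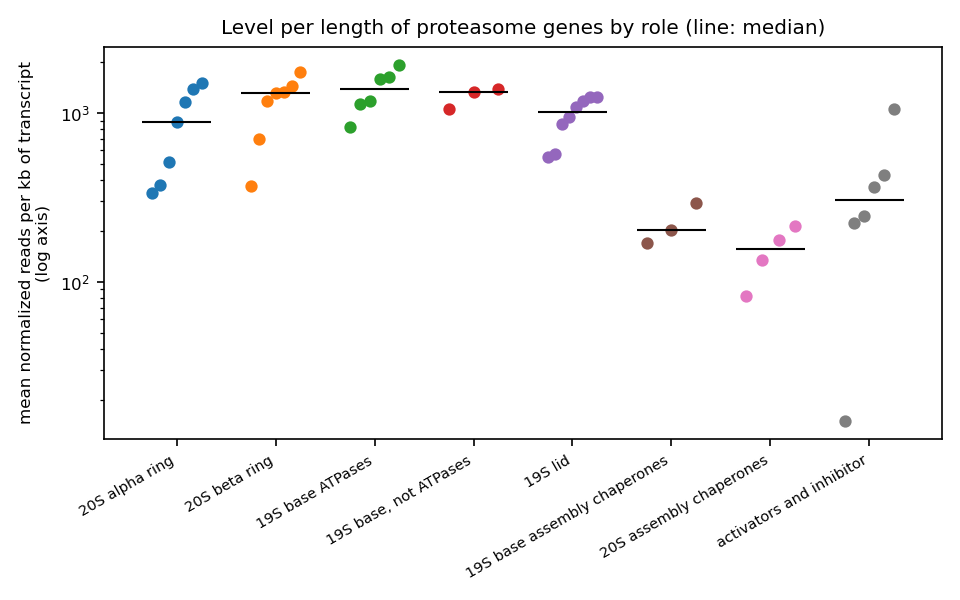
Mean normalized reads per kb of transcript (log axis) for each tested proteasome gene, grouped by role, where a point is 1 gene and a line the class median. Subunits of the core and cap sit between 335 and 1926 per kb, and every assembly chaperone sits below them.

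No proteasome gene passed the test for stroke against sham. Of the 45 members, 0 had an adjusted p below 0.05 by the Wald test with DESeq2 that the authors' deposited table holds, where 1.56% of all 17420 tested genes had one. At an unadjusted p below 0.05 there were 2 members, Psmd2 and Psmb5. Limma on the recovered reads also called 0 of 44, with 3 at an unadjusted p below 0.05. It called few genes of any kind, 0.014% of 14312, and in simulated data only 6% of those changed by 1 on the log2 scale.

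The fold changes were small and mostly on one side. Of 45 values from the authors' deposited table, 38 were above 0, or 84.4%, against 47.2% of all tested genes and 53.7% of those with a mean of at least 132 normalized reads. The median log2 fold change was 0.16 (a fold of 1.12), against -0.025 for all tested genes and 0.024 for the more abundant ones. Standard errors had a median of 0.24, and 31 of the 45 fold changes were smaller than their own error. From recovered reads, limma's fold change was above 0 in 31 of 44 members without the deeper sham and in 31 of 44 without the shallower, with medians of 0.16 in both. The share of all genes above 0 in those fits was not counted, so these counts have no background beside them. Of the 31 core and cap subunits 30 were above 0 in the deposited values and Psma6 was below. Of the 7 chaperones 3 were above 0. Fold changes of genes in one set of libraries share those libraries and are not independent of each other.

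**Figure D2:**
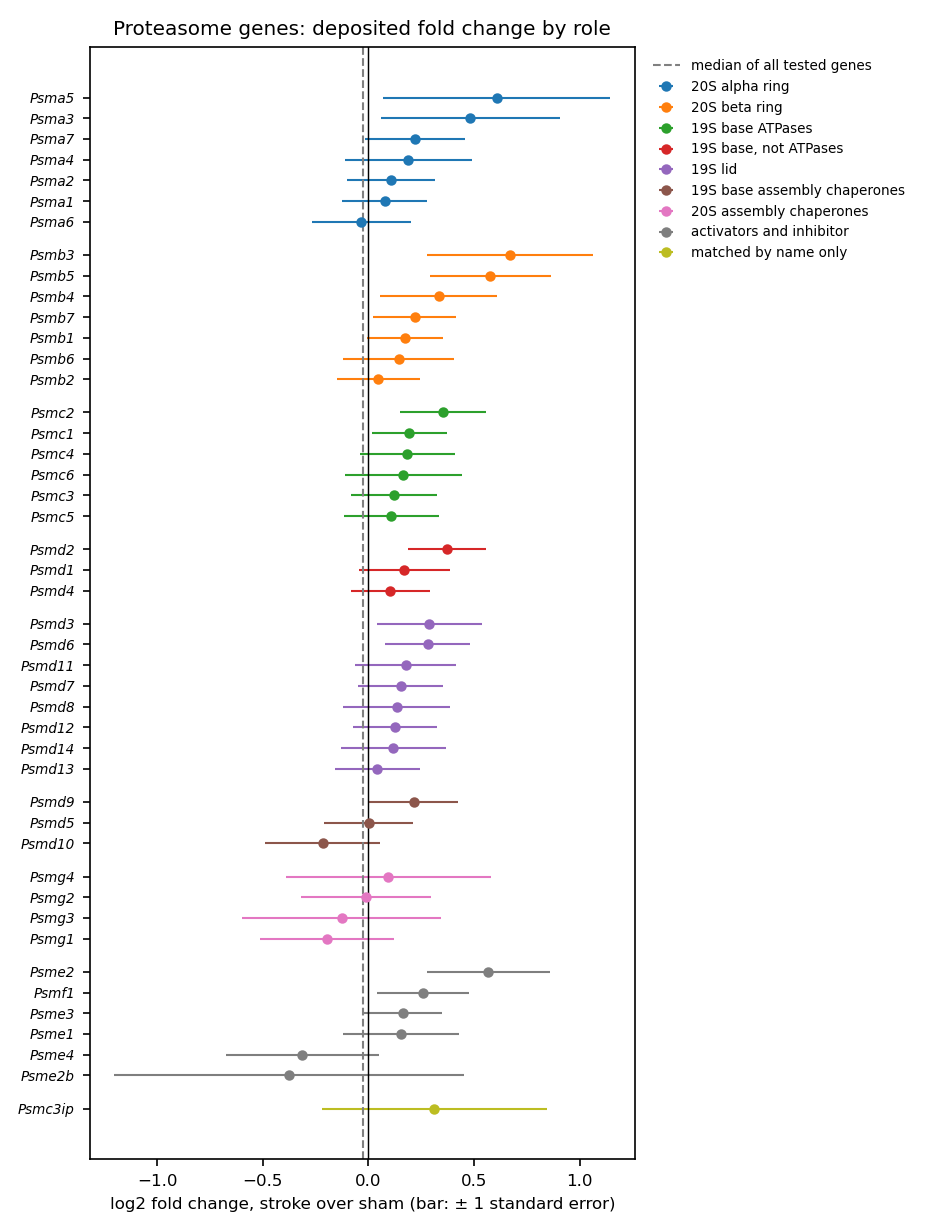
Log2 fold change of stroke over sham from the authors' deposited table for the 45 tested proteasome genes, by role, with bars of 1 standard error either side and a dashed line at the median of all tested genes, -0.025. All beta ring, base and lid genes lie right of 0, with Psmb3 at 0.67 and Psmd2 at 0.37, and most bars reach close to or across 0.

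The alpha ring forms the gate of the core, and 0 of its 7 tested genes passed. Psma3 had 1137, 1190 and 1267 normalized reads in stroke libraries 1 to 3, 420 in the deeper sham and 1297 in the shallower. The deeper sham alone was low, and the shallower lay above every stroke library. In the authors' deposited table its log2 fold change was 0.48 (SE 0.42, p = 0.255). Psma5 had 449, 454 and 540 in stroke, 109 in the deeper sham and 523 in the shallower. It too was low in the deeper sham alone, and its deposited log2 fold change of 0.61 (SE 0.54, p = 0.258, the authors' deposited table) carried the largest error of the 31 subunits. Psma2, with the largest mean of the ring, had 1571, 1438 and 1579 in stroke against 1270 and 1572 in the deeper and the shallower sham. In 6 of the 7 alpha genes the stroke libraries all exceeded the deeper sham but not the shallower. Psma7 was the exception, with 1404 to 1539 in stroke, 1471 in the deeper sham and 1044 in the shallower.

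The beta ring holds the proteolytic sites, and again 0 of 7 passed, with all 7 fold changes above 0. Psmb5, the chymotrypsin-like site and the target of proteasome inhibitors such as bortezomib, lies at chr14:54614119-54618022 (GRCm38, GENCODE M21, minus strand). It had 390, 386 and 369 normalized reads in stroke, 309 in the deeper sham and 202 in the shallower, with no overlap between the groups. In the authors' deposited table its log2 fold change was 0.58 (SE 0.29, unadjusted p = 0.0446, adjusted p = 0.449). Psmb3, a structural subunit, had 686, 578 and 632 in stroke, 224 in the deeper sham and 571 in the shallower. The groups did not overlap, but the shallower sham lay just under the lowest stroke library. The authors' deposited table gave it the largest fold change of the 45, 0.67 on the log2 scale (SE 0.39, p = 0.0875). Psmb1, the most abundant of the ring by reads, had 2186, 2142 and 2184 in stroke against 2010 and 1845, a log2 fold of 0.17 (SE 0.18) by the authors' deposited table. Its groups were separate too, by a small margin. The other catalytic subunits went different ways by library. Psmb7 had 1701 to 1854 in stroke, above 1399 and 1635 in the sham libraries. Psmb6 had 1346 to 1584 in stroke, between 1034 in the shallower sham and 1603 in the deeper.

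The base ATPases drive unfolding, and their 6 fold changes lay between 0.11 and 0.35 on the log2 scale with 0 called. Psmc2 had 2182, 1986 and 2456 normalized reads in stroke libraries, against 1777 in the deeper sham and 1680 in the shallower. Psmc1 had 2805, 2544 and 2658 against 2347 and 2319. In both genes the sham libraries lay close together and below every stroke library. The authors' deposited table gave Psmc2 a log2 fold change of 0.35 (SE 0.20, p = 0.0817). Psmc1 had 0.19 (SE 0.18, p = 0.279) in the authors' deposited table. Psmc3, the most abundant, had 2640, 2700 and 2905 against 2794 and 2259, so that only the shallower sham fell outside the stroke range.

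The other base genes include Psmd2, at chr16:20651652-20663414 (plus strand), a large scaffold that docks ubiquitin-like domains of shuttle factors. It had the smallest p of the 45. Its normalized reads were 4555, 4264 and 4650 in stroke, 3242 in the deeper sham and 3690 in the shallower, with no overlap. In the authors' deposited table its log2 fold change was 0.37 (SE 0.18, unadjusted p = 0.0433, adjusted p = 0.442), a fold of 1.30. Psmd1, the companion scaffold, had 3500, 3241 and 3539 against 2622 in the deeper sham and 3472 in the shallower, which lay within the stroke range. Psmd4, a ubiquitin receptor, had a log2 fold of 0.10 (SE 0.19) by the authors' deposited table.

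All 8 tested lid genes had fold changes above 0 and 0 passed. Psmd6 had 1440, 1290 and 1483 normalized reads in stroke libraries, against 1097 and 1217 in the deeper and the shallower sham, a log2 fold of 0.28 (SE 0.20, p = 0.161) by the authors' deposited table. It was the only lid gene with no overlap between the groups. Psmd3 had 3011, 2684 and 2890 against 2818 in the deeper sham, inside the stroke range, and 1867 in the shallower. Psmd14, the deubiquitinase, had 1752, 1633 and 1787 in stroke, 1273 in the deeper sham and 1909 in the shallower, again with only the deeper sham below all stroke libraries.

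The assembly chaperones had fold changes on both sides of 0, with 0 of 7 called. Psmg1, Psmg2 and Psmg3, which build the alpha ring, had log2 fold changes of -0.20, -0.012 and -0.13 (SE 0.32, 0.31 and 0.47) by the authors' deposited table. Psmg1 had 150, 174 and 199 normalized reads in stroke libraries, against 230 and 169. Psmg2 had 187, 219 and 271 against 250 and 204. Sham values lay within or near the stroke range in these genes, and none passed. Psmg3 had 59.2 to 79.7 in stroke against 102 in the deeper sham and 50.4 in the shallower. Of the base chaperones, Psmd9 had 573, 529 and 558 against 468 and 486, with no overlap and a log2 fold of 0.21 (SE 0.21) by the authors' deposited table. Psmd5 was nearly level, with a deposited log2 fold change of 0.00025 (SE 0.21, the authors' deposited table). Psmd10 had 213, 210 and 256 against 247 and 279, and overlapped.

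Activators cap the core in place of the 19S particle. Psme2, a subunit of the interferon-inducible PA28, had 226, 232 and 283 normalized reads in stroke, 150 in the deeper sham and 184 in the shallower. The groups did not overlap, and the authors' deposited table gave a log2 fold change of 0.57 (SE 0.29, p = 0.0514, adjusted p = 0.482). Its partner Psme1 had 480 to 512 in stroke, 540 in the deeper sham and 353 in the shallower. Psmf1, an inhibitor of the core, had 1087, 936 and 972 against 761 and 909, without overlap, with a log2 fold of 0.26 (SE 0.22) by the authors' deposited table. Psme3 had 3127, 2721 and 2963 in stroke against 2521 and 2728, so its groups overlapped by a few reads. Psme4 (PA200) had a deposited log2 fold change of -0.31 (SE 0.36, the authors' deposited table), and no single set of reads could be recovered for it. Psme2b, at 9.85 to 12.4 in stroke against 12.7 and 16.4, was the one member with every stroke library below both sham libraries. The name-only match Psmc3ip had 36.2 to 43.0 in stroke against 38.1 and 25.9.

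Across the 44 members with recovered reads, 11 had every stroke library above both sham libraries, where 12.5% of 14312 genes did. Those 11 are 25.0% of the 44. They were Psmb1, Psmb3, Psmb5, Psmb7, Psmc1, Psmc2, Psmd2, Psmd6, Psmd9, Psme2 and Psmf1. Only Psme2b had every stroke library below both, against a background of 12.8%. In 13 members the stroke libraries all exceeded the deeper sham only, and in 14 the shallower sham only. The remaining 5 had other orders.

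Summed over the 44 members the sham libraries nearly coincided. The sums were 63995, 60686 and 65125 normalized reads in stroke, 54889 in the deeper sham and 56026 in the shallower (53927 and 58447 when scaled to the median ratio of abundant genes). Every stroke library lay above both sham libraries, and the log2 ratio of the group means was 0.19. The sum over all 14312 tested genes with recovered reads also had every stroke library above both sham libraries, with a log2 ratio of 0.016. Over the 8154 protein-coding ones with a mean of at least 132 normalized reads it was 0.036. Genes outside the lists with a mean above 2000 are in neither sum. Behind their close sums over the members, the sham libraries differed gene by gene. The log2 ratio of shallower over deeper had a standard deviation of 0.65 and a range from -1.07 (Psmg4) to 2.26 (Psma5). The shallower sham was the higher in 22 members and the deeper in 22. By class, the alpha ring summed to 8603, 8265 and 8974 in stroke, 6423 in the deeper sham and 8822 in the shallower. The beta ring summed to 9631, 8880 and 9220, with 8350 in the deeper sham and 7378 in the shallower. So the alpha ring was low in the deeper sham only, and the beta ring was lower in both. The ATPases (13487 to 14529 in stroke, 12825 and 11783 in the sham libraries) and the lid (13882 to 14741 in stroke, 13076 and 12404) were below the stroke range in both sham libraries as well.

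**Figure D3:**
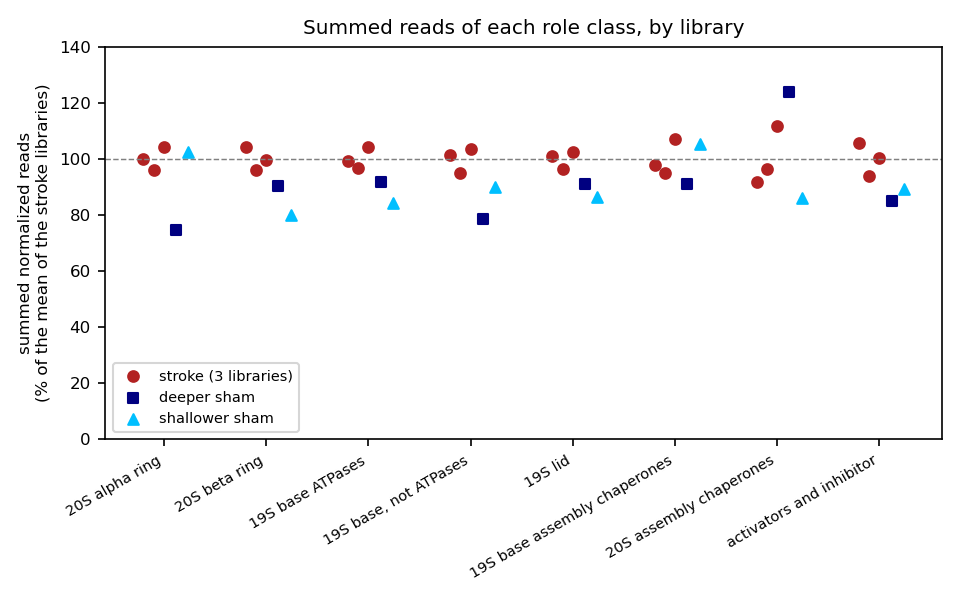
Summed normalized reads of each role class in each library, as a percentage of the mean of the 3 stroke libraries (dashed line). The alpha ring stands at 74.6% in the deeper sham and 102% in the shallower, and the beta ring, ATPases, other base genes and lid stand below the stroke libraries in both.

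Which sham library was low in a subunit varied with the base composition of its transcript. Over the 44 members, the Spearman correlation between the percentage of G and C in the transcript and the log2 ratio of shallower over deeper sham was -0.69. Over 8409 tested genes with a mean of at least 132 normalized reads it was -0.70. Both are descriptions across genes, which share the same pair of libraries. Members whose stroke values exceeded the deeper sham only had a median of 45.0% G and C, and those exceeding the shallower only 54.3%. The first 150 coding bases are shown for a pair of genes of each of these kinds, with G and C in capitals (GENCODE M21 transcripts). Psmc6 had the lowest percentage among the members and Psmd3 the highest, and Psma3 and Psmb4 are among the genes that the fits below call. Psma5, of the same kind as Psma3 and with 49.2% G and C, is called there too and is not shown.
Psma3: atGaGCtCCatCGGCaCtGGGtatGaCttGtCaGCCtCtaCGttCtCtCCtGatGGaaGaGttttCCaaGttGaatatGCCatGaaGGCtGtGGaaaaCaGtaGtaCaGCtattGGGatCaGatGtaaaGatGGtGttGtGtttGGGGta
Psmc6: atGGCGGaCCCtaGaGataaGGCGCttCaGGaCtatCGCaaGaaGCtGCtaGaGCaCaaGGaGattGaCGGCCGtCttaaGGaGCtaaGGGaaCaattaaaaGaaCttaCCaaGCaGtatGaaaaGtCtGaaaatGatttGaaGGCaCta
Psmb4: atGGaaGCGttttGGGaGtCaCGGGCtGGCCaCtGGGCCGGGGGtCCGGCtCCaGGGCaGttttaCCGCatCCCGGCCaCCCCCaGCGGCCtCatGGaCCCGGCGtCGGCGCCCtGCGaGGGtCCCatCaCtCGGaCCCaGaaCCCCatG
Psmd3: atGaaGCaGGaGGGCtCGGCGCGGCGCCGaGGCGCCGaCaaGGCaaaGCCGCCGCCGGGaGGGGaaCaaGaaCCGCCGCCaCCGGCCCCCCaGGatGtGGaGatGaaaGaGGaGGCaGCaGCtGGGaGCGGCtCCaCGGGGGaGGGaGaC

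The shown stretches are 45.3% and 44.7% G and C in Psma3 and Psmc6, whose stroke values exceeded the deeper sham only. In Psmb4 and Psmd3, whose stroke values exceeded the shallower sham only, they are 70.0% and 71.3%. Over the whole coding sequence the values were 42.4%, 41.8%, 56.1% and 57.4%. Some genes with wide gaps between the sham libraries lay outside this relation. Psma5 had 49.2% in its transcript, near the members' median of 49.8%, and Psmb3 had 53.8%, yet both were low in the deeper sham.

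**Figure D4:**
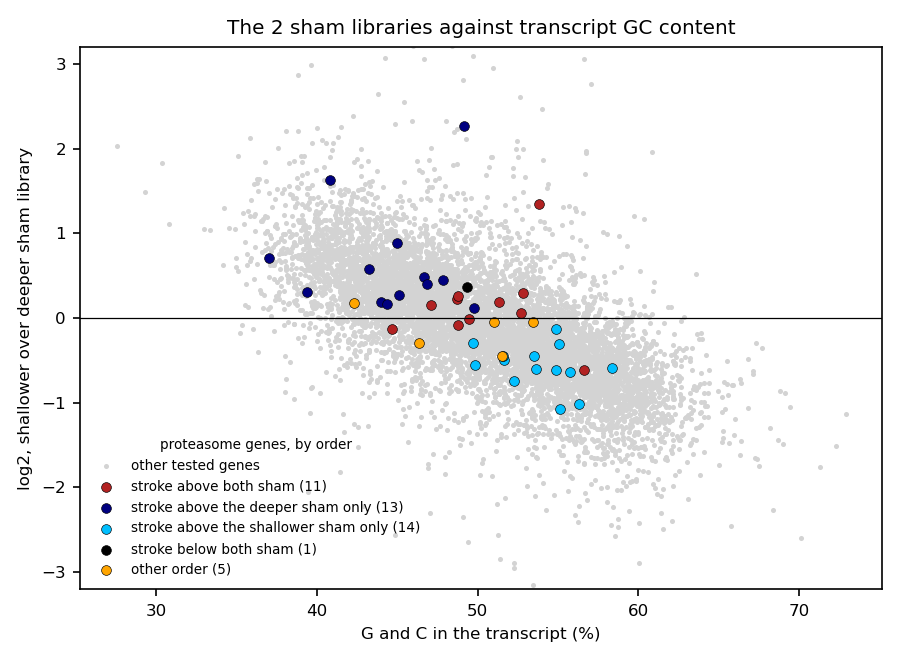
Log2 ratio of the shallower over the deeper sham library against the percentage of G and C in the transcript, for tested genes with a mean of at least 132 normalized reads (grey, of which 37 lie outside the plotted range) and the 44 proteasome genes coloured by the order of their libraries. The ratio falls with G and C content in both sets, and Psma5 (2.26) and Psmb3 (1.35) lie above the grey cloud's centre.

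Fits that left out 1 sham library called different members. Without the deeper sham, limma called Psmb4, Psmb5 and Psmd3 higher in stroke, where 8.79% of 14312 genes were called higher. The log2 fold change of Psmb5 was then 0.92 (adjusted p = 0.0176, limma with Benjamini-Hochberg adjustment). Without the shallower sham, limma called Psma3, Psma5 and Psmb3 higher, where 1.81% of genes were. The log2 fold changes were then 1.51, 2.13 and 1.49 (adjusted p = 0.00261, 0.00206 and 0.00626, limma). The lists shared no gene, and each fit rests on a lone sham library assumed to vary like the stroke libraries. The 3 of 44 called without the deeper sham are a smaller share than that of all genes. With any 1 stroke library left out, limma called 0 members and also 0% of 14312 genes, so those fits say nothing of the members.

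**Figure D5:**
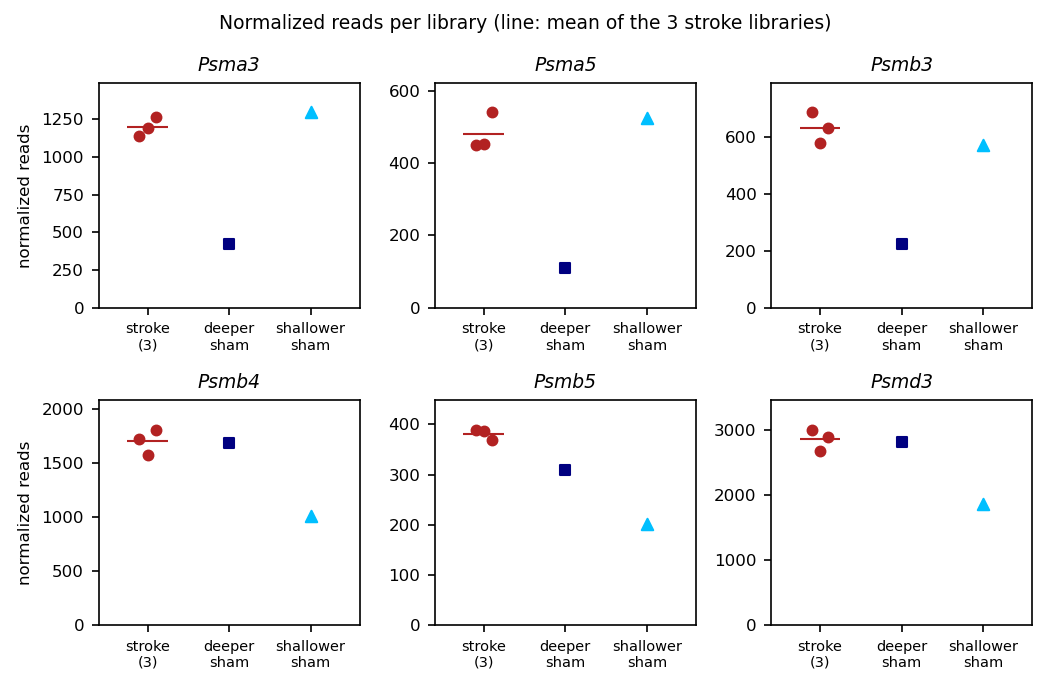
Normalized reads per library for the 6 proteasome genes that limma called when 1 sham library was left out, with a line at the mean of the 3 stroke libraries and each vertical axis starting at 0. Psma3, Psma5 and Psmb3 are low in the deeper sham alone, and Psmb4, Psmb5 and Psmd3 are lowest in the shallower sham.

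When the median deviation of genes of like G and C content was taken off in each library, 15 of the 44 members had every stroke library above both sham libraries in place of 11. After the same adjustment 13.7% of 14270 genes did, against 12.5% before it. For these backgrounds too, genes outside the lists were not tried above a mean of 2000. The median absolute sham log2 difference over the members went from 0.38 to 0.27. Limma on the adjusted values called 0 members and 0.014% of all genes, with 5 members at an unadjusted p below 0.05, and the median log2 fold change was 0.16. How many of all genes reached that unadjusted p was not counted. This adjustment was chosen after the values had been seen.

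Partners of the proteasome that the symbol rule does not match included a gene that passed. Adrm1, the base's other ubiquitin receptor, had 927, 766 and 762 normalized reads in stroke, 210 in the deeper sham and 473 in the shallower. It rose, with a log2 fold of 1.27 (SE 0.36, adjusted p = 0.0382) by the authors' deposited table. It was the 1 called of 15 partner genes tested, and 12 of the 15 fold changes were above 0. The lid's small subunit Sem1 had a log2 fold of 0.019 (SE 0.20), and the 20S maturation factor Pomp 0.18 (SE 0.27), both in the authors' deposited table. Akirin2, which imports proteasomes into the nucleus, had 0.41 (SE 0.19, adjusted p = 0.399) by the authors' deposited table.

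The polyubiquitin gene Ubb had a log2 fold of 0.26 (SE 0.27) by the authors' deposited table. The 15 tested p97 and shuttle factor genes held 0 calls, with Ubqln1 at 0.48 (SE 0.19, adjusted p = 0.234) and Ddi2, the protease that activates NRF1, at 0.47 (SE 0.22, adjusted p = 0.378) by the authors' deposited table. In the NRF1 list 0 of 10 passed. There the small Maf gene Maff, whose product partners NRF factors, came closest at 1.19 (SE 0.36, adjusted p = 0.0549, the authors' deposited table), and Nfe2l1 itself had 0.15 (SE 0.20). The immunoproteasome genes, which replace the catalytic subunits under interferon, also held 0 calls of 3. Psmb8 had 39.8 to 63.6 normalized reads in stroke, 52.9 in the deeper sham and 13.6 in the shallower, and Psmb10 had 487 to 527, 564 and 267. Both were low in the shallower sham alone. Psmb9 differed, with 8.84 to 13.4 in stroke, 19.1 in the deeper sham and 12.3 in the shallower. Its log2 fold was -0.49 (SE 0.84) by the authors' deposited table.

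Other large complexes in the same table give the scale of the proteasome values. The 8 subunits of the CCT chaperonin, which folds actin and tubulin, had a median log2 fold change of 0.26 with 0 called, and the 13 of the translation factor eIF3 had 0.23 with 0 called. The 9 of the COP9 signalosome, which is related to the lid, had 0.09 with 0 called. Fold changes were above 0 in 8 of 8 CCT, 13 of 13 eIF3 and 8 of 9 COP9 genes. Among those with recovered reads, every stroke library lay above both sham libraries in 5 of 6, 4 of 10 and 1 of 8. Over all 14312 tested genes with recovered reads the share was 12.5%. Genes outside the lists were not tried above a mean of 2000, where several of these CCT genes lie. Of 76 tested cytosolic ribosomal protein genes 12 rose, and their median was 1.03. The ribosomal genes were low in the deeper sham above all. Their recovered members summed to 81728 to 87668 normalized reads in stroke, 60359 in the shallower sham and 37035 in the deeper, and 46 of 55 were lower in the deeper than in the shallower. The difference between the proteasome and these complexes was not tested.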

How the data were processed

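RNA sequencing was done on 2 sham and 3 stroke libraries, made with a stranded mRNA kit per the labels' protocols. Per the submitters' processing notes, the authors used the build GRCm38 with STAR 2.5.2b, FastQC, DESeq2 1.14.1 and featureCounts 1.5.1. The annotation release, strand setting and handling of multi-mapped reads were not given in the sources used here, so reads of near-identical copies such as Psme2b and the pseudogene rows are uncertain. Per the file headers, the deposited columns hold a signal (the mean read count after division by size factors), the log2 fold change and its standard error, the Wald score, its p-value and the adjusted p-value. The authors' Wald test, called at an adjusted p below 0.05, was the main test. A positive fold was read as higher in stroke, because genes with 1 read in 1 library gave 3 positive and 2 negative values.

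Whole reads per library were searched for with numba 0.67.0 and accepted when 1 set alone gave the deposited values (fold change to within 6e-10). Of 28767 genes tried, 22339 were recovered. Genes with a mean above 2000 (4500 for listed genes) were not tried. Among 627 genes with the log2 fold change shifted on purpose by 1e-06, 4 were accepted, against 615 unshifted. Recovered reads totalled 4557171 (shallower sham) to 7303893 (stroke 1), and the full depth is unknown. Limma 3.58.1 (R 4.3.3, trend and robust variance) was run on log2 of normalized reads plus a pseudocount of 1. The search and limma were tested on simulated data.

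Transcript length and composition came from GENCODE M21, with 1 principal protein-coding transcript per gene, and upstream sequence from RefSeq. A mean of 132 normalized reads (5 in 1e6 of the summed means) marked the more abundant genes. The members and lists were chosen with earlier results of these data known. Named are the 2 members of each role with the smallest p and the one with the largest mean, called or up to 2 genes of each related list by p, and Trim9. A gene of the related lists is not reported here. Other members and other genes of the related lists were named after their values were seen. Other adjustment sets, filters, nulls, centrings, pseudocounts, scalings and libraries left out were tried.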

Additional observations from a re-analysis of the deposited data

How the results depend on the processing

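The count of proteasome genes called stayed at 0 in each alternative with all 5 libraries: adjustment over every gene with a p, genes with a mean of at least 132 normalized reads, a null fold of 1.5, centring, limma, its pseudocount of 5 and its other scaling. The added adjustment for G and C content also gave 0. Limma with all 5 libraries called 0.014% of all genes before and after that adjustment, so its counts of 0 say little of the members. Only 2 of the 45 members had a fold beyond 1.5, so the null fold of 1.5 could have called those 2 at most. With 1 library left out the count ranged from 0 to 3, with 3 when either sham library was left out. The same fits called 0 of all genes without any 1 stroke library, 1258 higher and 1364 lower without the deeper sham, and 259 higher and 192 lower without the shallower. The median log2 fold change lay between 0.13 and 0.20 in all alternatives run, and from 0.16 to 0.20 with 1 library left out. Scaling to the median ratio moved the sum of the shallower sham to 58447 normalized reads, still under every stroke library. Of the named genes, log2 fold changes from limma with 1 library left out ranged from -0.041 to 0.27 in Psma2, -0.12 to 1.51 in Psma3, -0.13 to 2.13 in Psma5, -0.025 to 0.28 in Psmc3, -0.020 to 0.38 in Psmd1, -0.13 to 0.14 in Psmd5, -0.40 to 0.037 in Psmg1, -0.16 to 0.12 in Psmg2 and -0.54 to 0.45 in Psmg3. Among these, Psmd5 was at -0.058 without stroke 3, Psmg3 at 0.069 without stroke 2 and Psmg2 at 0.11 without stroke 1. Psmd5 was at -0.024 after centring and -0.026 under the other scaling, and Psmg2 at 0.031 after the G and C adjustment. No value that changed sign was called in the fit where it did so, and the cause was not tested. No paired analysis was possible because the file carries no replicate numbers and libraries are known only by size factor. The standard errors of the members ran from 0.18 to 0.83 on the log2 scale.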
